A study of Mus musculus with 6 samples.

Results

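The cytosolic ribosomal protein genes of the ductus arteriosus (DA) were taken from a table of gene expression as all rows whose symbol is Rpl or Rps followed by a number, with or without a single suffix such as a, x, or l, together with *Rplp0*, *Rplp1*, *Rplp2*, and *Rpsa*. Of the 23997 genes in the table, 84 had such a symbol, and the 81 with a mean of at least 1 FPKM over the 6 libraries were kept, 48 of the large subunit and 33 of the small subunit. FPKM counts the fragments of a gene per length of its transcript and per size of its library. The data were bulk RNA-Seq of DA removed from C57BL/6 mouse embryos at E17.5 without treatment. There were 3 libraries labelled WT, from wild type mice, and 3 labelled KO, from *Prdm6f/f; SM22-Cre* mice. *SM22-Cre* drives Cre-recombinase from the promoter of *Tagln* in smooth muscle cells (SMCs), so that cells of the DA that do not express SM22 keep *Prdm6*. No age other than E17.5 and no other allele or agent was named for either group, and the labels do not say whether a library held 1 DA or several. Nothing in the labels says that replicates came from separate litters, so that p-values measure the spread between these libraries.

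Ribosomal proteins and ribosomal RNA form the small subunit, which decodes mRNA, and the large subunit, which joins amino acids. In growing cells the mRNAs of these proteins are among the most abundant, and most begin with a terminal oligopyrimidine (TOP) tract through which mTOR signaling controls their translation. Each functional gene has given rise to many processed pseudogenes, copies of its spliced mRNA inserted elsewhere in the genome, which are so similar to it that short reads can be assigned to either.

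The targeted gene, *Prdm6*, had values of 41.7, 48.4, and 19.8 FPKM in WT 0, WT 1, and WT 2 and of 48.6, 27.1, and 15.4 FPKM in KO 0, KO 1, and KO 2, as these are labelled. The groups overlapped, and the highest value was in a library labelled KO. The floxed part of *Prdm6* is not given in the sources used here, and the FPKM of the whole gene does not test the removal of a part, so each direction below rests on the labels. Of the SMC markers, *Tagln* and *Myh11* were lower in every library labelled KO than in every library labelled WT, with KO means of 48.4% and 27.6% of the WT means. Markers of SMCs were present in all 6 libraries, with summed FPKM of 2816 to 6145 in those labelled WT and 979 to 2497 in those labelled KO. Depth is unknown because FPKM holds no counts; from the steps between low values it lay between 0.927 and 1.19 times that of WT 1. Between 8338 and 11886 genes were listed at 0 in a library. The library labelled KO 0 held both *Xist* (81.0 FPKM), the transcript of the inactive X chromosome, and the Y-linked *Ddx3y* (26.4 FPKM), whereas each of the others was high in 1 of the 2. Genes of small RNAs took between 7.95% and 58.4% of the summed FPKM. In WT 2 and in the library labelled KO 0 the ribosomal protein genes were spread more widely around their own 6-library means than elsewhere: the interquartile range of the log2 deviations was 0.751 and 0.707 there and between 0.232 and 0.298 in the other 4 libraries. Counts below are therefore also given without these 2.

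The ribosomal protein genes were, as a group, lower in the libraries labelled KO. Their summed FPKM was 43491, 44355, and 46244 in WT 0, 1, and 2, and 38843, 36612, and 34647 in KO 0, 1, and 2. Every library labelled KO lay below every library labelled WT, and the mean of the KO libraries was 82.1% of that of the WT libraries. The sum of the large subunit genes was 80.1% of the WT mean and that of the small subunit genes 85.2%. As a share of the summed FPKM of all genes other than small RNAs, mitochondrial transcripts, and *Rn45s*, the ribosomal protein genes took 11.3%, 11.9%, and 12.1% in the WT libraries and 10.5%, 9.90%, and 10.3% in the KO libraries. The groups did not overlap on this scale either, and the KO mean was 87.0% of the WT mean. In bulk samples, fewer cells with a high ribosome content and less ribosomal protein mRNA per cell cannot be told apart.

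**Figure D1:**
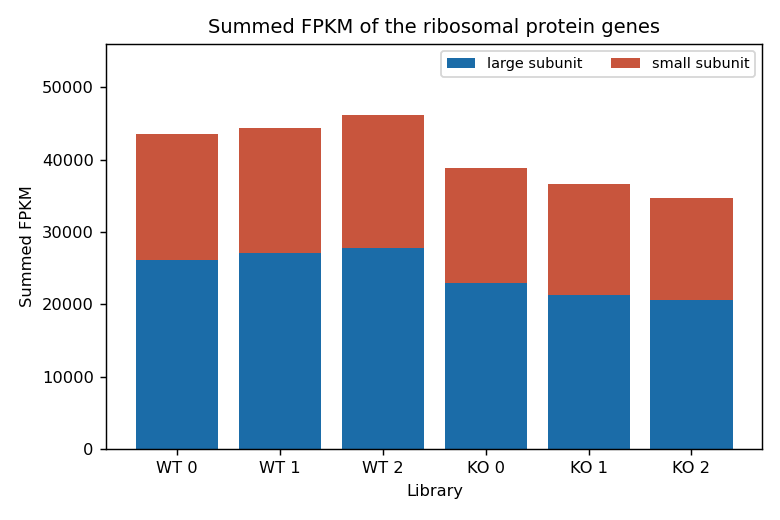
Summed FPKM of the 81 ribosomal protein genes in each library (bars, from 0), divided into large subunit (blue) and small subunit (red). The 3 libraries labelled KO sit between 34647 and 38843 and the 3 labelled WT between 43491 and 46244.

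Single genes were compared with limma on log2(FPKM + 0.1) over the 12955 genes with a mean of at least 1 FPKM, with Benjamini-Hochberg adjustment over all of them. On this scale the change of genes with low FPKM is understated. Not 1 of the 81 ribosomal protein genes had an adjusted p under 0.05, and the smallest was 0.298 for *Rpl37* (limma). Over all tested genes 1 passed, *Rn45s*, which is 0.00772%. It was listed at 0 in every WT library, which can be a failed estimate. At an unadjusted p under 0.05, 27 ribosomal protein genes were lower and 1 was higher in the KO libraries, beside 4.97% and 3.31% of all tested genes. In 36 of the 81 every KO library lay below every WT library, and in 2, *Rps14* and *Rps7*, every KO library lay above. Over all tested genes the groups did not overlap for 7.84% in the lower direction and 8.21% in the higher. With 3 libraries against 3, a two-sided exact permutation test of a single gene cannot give a p under 0.1.

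The level of a gene bears on this background, since ribosomal protein genes are highly expressed and their spread between libraries is small. The median standard error of the log2 fold change was 0.22 for the ribosomal protein genes and 0.41 for all tested genes. Among the 1204 genes with a mean of at least 50 FPKM, 20.6% were lower without overlap and 4.4% were higher. Of the 75 ribosomal protein genes above that level 35 were lower without overlap and 2 were higher, and of the 1129 other genes 213 were lower and 51 were higher. The median log2 fold change was -0.37 for the ribosomal protein genes, -0.14 for the other genes of at least 50 FPKM, and 0.07 for all tested genes. In all, 66 of the 81 had a lower mean log2 value in the KO libraries and 15 a higher one.

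**Figure D2:**
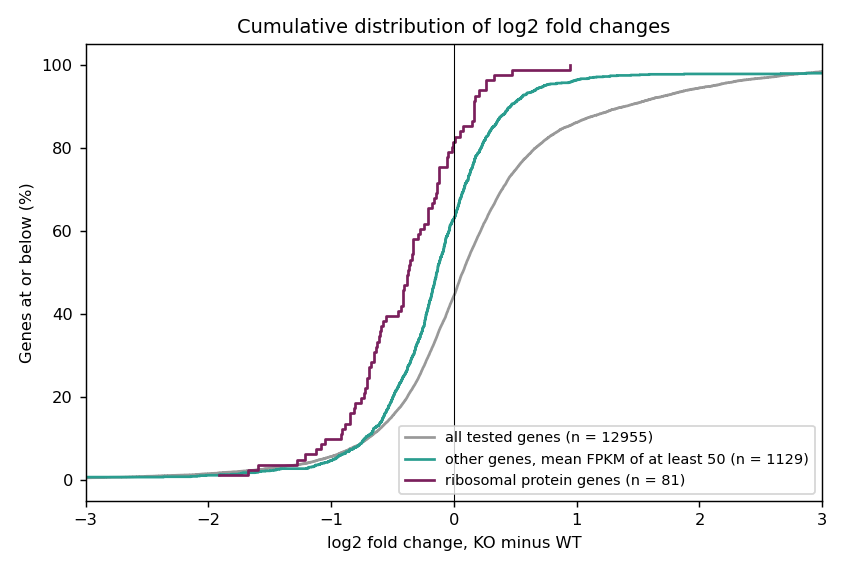
Percent of genes at or below each log2 fold change (KO minus WT, horizontal axis, drawn from -3 to 3) for the 81 ribosomal protein genes, the 1129 other genes with a mean of at least 50 FPKM, and all 12955 tested genes. The curve of the ribosomal protein genes lies to the left of both others over most of the range, with a median of -0.37 against -0.14 and 0.07.

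The count depended on the libraries that stood apart. Without WT 2 and KO 0, which leaves 2 libraries in each group, 63 of the 81 genes were lower without overlap and 3 were higher, beside 20.1% and 22.1% of all tested genes. These 2 libraries were picked by the spread of the ribosomal protein genes themselves. The larger count is therefore no independent support for the shift. Without WT 1 and KO 2, the 2 libraries highest in heart muscle transcripts, 38 were lower and 6 were higher, beside 17.6% and 20.4% of all genes. The median log2 fold change was -0.40 without WT 2 and KO 0.

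The shift was seen in both subunits. Of the 48 large subunit genes 21 were lower without overlap and 0 were higher, with a median log2 fold change of -0.42. Of the 33 small subunit genes 15 were lower and 2 were higher, with a median of -0.34. In the 36 lower genes, which lie on 17 chromosomes, the KO mean ranged from 32.9% to 86.5% of the WT mean, with a median of 62.3%, and in 25 of them the difference was at least 1.5-fold.

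**Figure D3:**
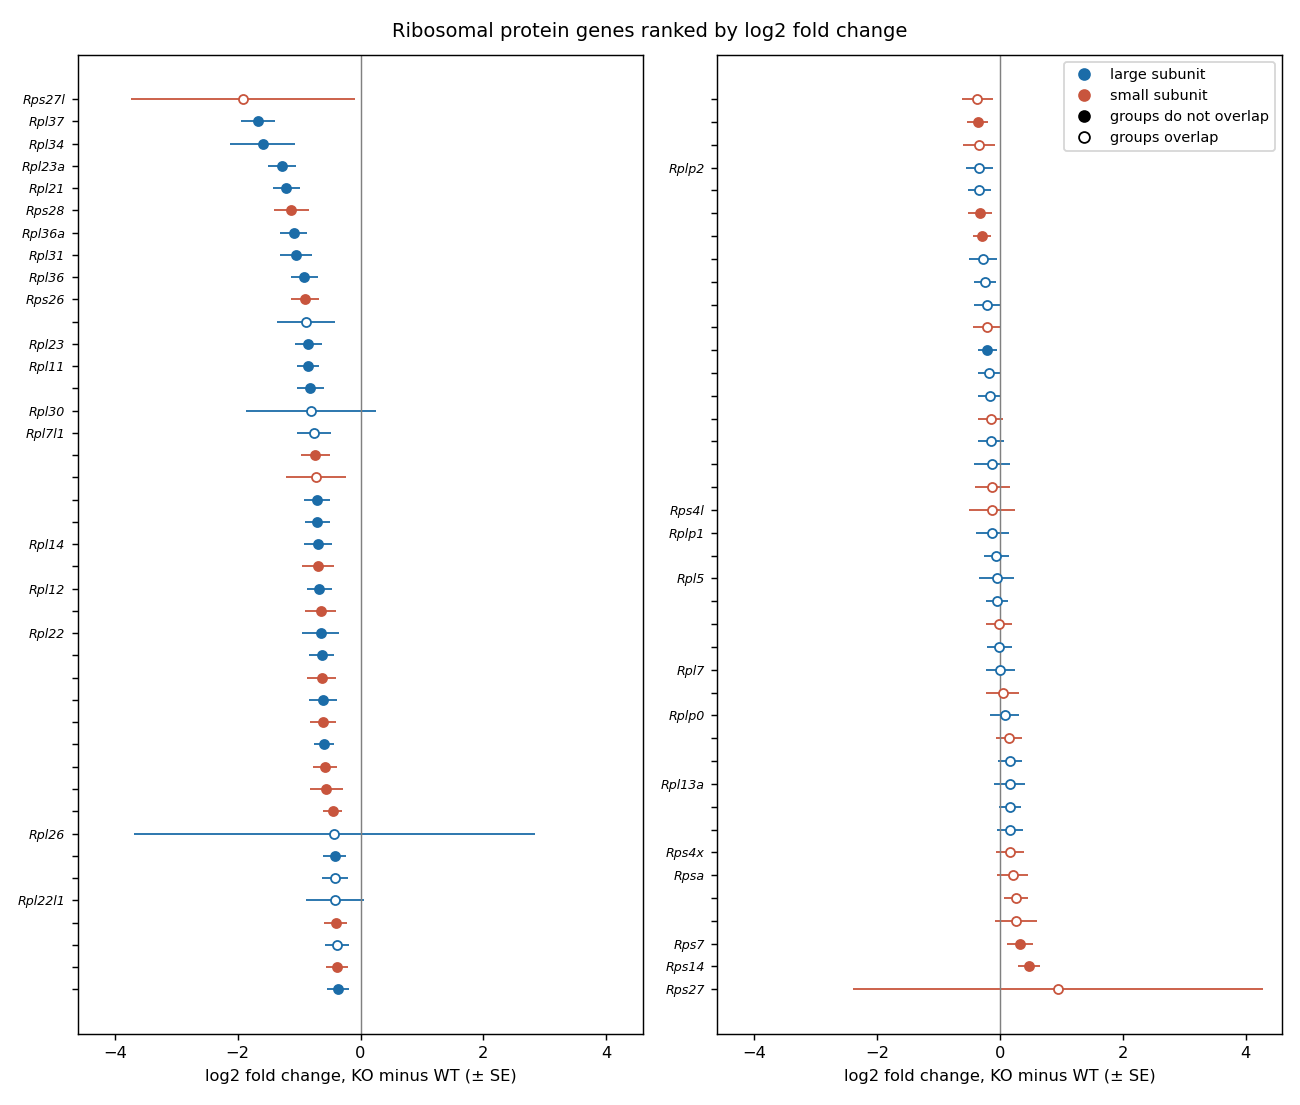
Log2 fold change (KO minus WT, horizontal axis) of each of the 81 ribosomal protein genes with its standard error from limma, ranked from lowest (top left) to highest (bottom right), with the names of genes described in the text. Filled points mark the 36 lower and 2 higher genes whose groups do not overlap, and the 3 longest bars belong to *Rps27*, *Rpl26*, and *Rps27l*.

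Among the genes whose groups did not overlap, the lowest was *Rpl37*, a small zinc-binding protein of the large subunit (chr15:5116645-5119140, plus strand, GRCm38). It was measured at 344, 338, and 364 FPKM in the WT libraries and at 70.8, 119, and 154 FPKM in the KO libraries. The 3 WT libraries lay close together and the highest KO value was far below the lowest WT value. The mean was 349 ± 13.5 (SD, n = 3) in the WT and 115 ± 41.6 (SD, n = 3) in the KO libraries, a 3.04-fold difference of means, with a log2 fold change of -1.67 (SE 0.28, adjusted p = 0.298 from limma).

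*Rpl23a*, which lies at the rim of the exit tunnel where the signal recognition particle docks (chr11:78180932-78183584, minus strand), was measured at 745, 718, and 884 FPKM in the WT libraries and at 248, 396, and 336 FPKM in the KO libraries. Its log2 fold change was -1.28 (SE 0.22, adjusted p = 0.317 from limma). *Rpl31*, a neighbor on the tunnel rim, was measured at 257, 279, and 458 FPKM and at 124, 184, and 162 FPKM, with a log2 fold change of -1.05 (SE 0.26). In both genes the library labelled KO 0 was the lowest and WT 2 the highest of the 6.

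*Rpl21*, a large subunit protein with 55 near-identical copies in the genome, more than any other member, was measured at 232, 200.0, and 330.1 FPKM in the WT libraries and at 104, 126, and 94.6 FPKM in the KO libraries (log2 fold change -1.21, SE 0.22). *Rpl36a*, an X-linked gene of the large subunit, was measured at 430.2, 401, and 486 FPKM and at 153, 242, and 237 FPKM (log2 fold change -1.09, SE 0.22). *Rpl36* was measured at 461, 407, and 326 FPKM and at 167, 255, and 212 FPKM (log2 fold change -0.92, SE 0.22). For *Rpl36* WT 2 was the lowest of the WT libraries, unlike in *Rpl21* and *Rpl36a*. *Rpl23*, which is known to bind Mdm2, was measured at 325, 337, and 476 FPKM and at 172, 233, and 222 FPKM (log2 fold change -0.85, SE 0.22).

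In the small subunit the lowest without overlap were *Rps28* and *Rps26*, both of which lie near the exit of the mRNA channel. *Rps28* was measured at 190.2, 129, and 185 FPKM in the WT libraries and at 51.0, 102, and 84.2 FPKM in the KO libraries (log2 fold change -1.12, SE 0.29). *Rps26* was measured at 357, 452, and 354 FPKM and at 152, 232, and 245 FPKM (log2 fold change -0.91, SE 0.23). The library labelled KO 0 was the lowest of the 6 in both. None of these 9 genes nor *Rpl34*, described with its copy below, had an adjusted p under 0.298 in limma.

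The 2 genes higher without overlap both belong to the small subunit. *Rps14*, a protein of the platform of the small subunit, was measured at 481, 476, and 423 FPKM in the WT libraries and at 697, 663, and 558 FPKM in the KO libraries (log2 fold change 0.47, SE 0.18, unadjusted p = 0.0322, adjusted p = 0.588 from limma). *Rps7*, which takes part in the assembly of the small subunit, was measured at 949.9, 974, and 728 FPKM and at 1207, 1063, and 1038 FPKM (log2 fold change 0.33, SE 0.21, unadjusted p = 0.166 from limma). The library labelled KO 0 was the highest of the 6 in both genes. More generally, the libraries did not order the genes alike: 14 genes reached their highest value in the library labelled KO 0, 2 in KO 1, and 0 in KO 2, and 24 had their lowest value in KO 0.

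**Figure D4:**
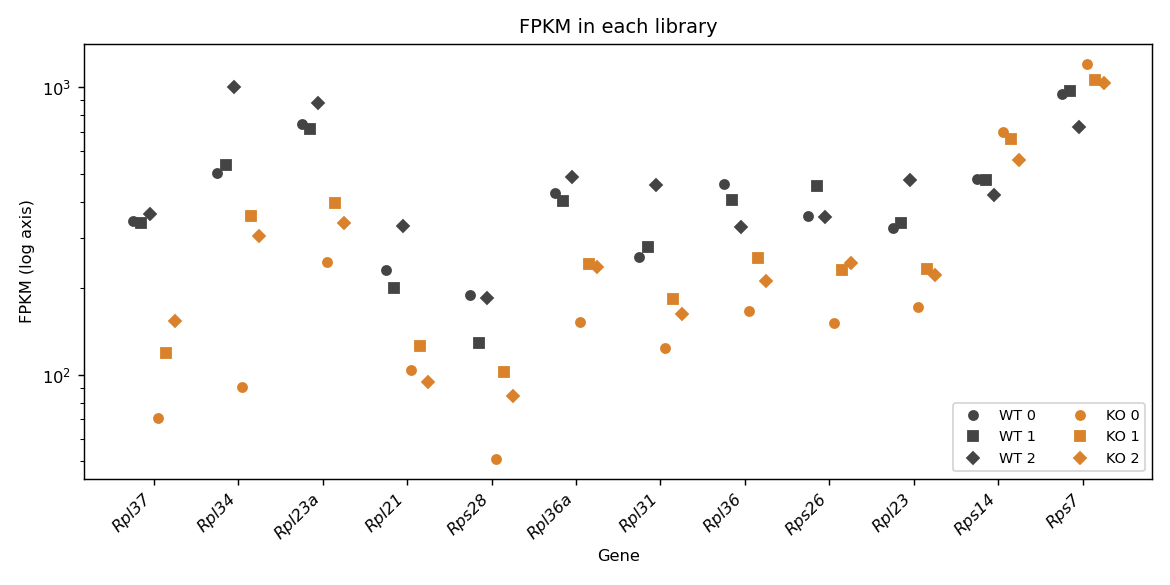
FPKM (logarithmic axis) in each of the 6 libraries for the 10 genes with the lowest log2 fold change among those without overlap, followed by the 2 higher ones, *Rps14* and *Rps7*; grey, WT; orange, KO; symbols mark replicates 0, 1, and 2. In the first 10 genes all orange points lie below all grey points, and in the last 2 they lie above.

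Of the most abundant ribosomal protein mRNAs, 4 that overlapped between the groups are given. *Rplp1*, a protein of the P stalk that recruits elongation factors, had the highest level per length, at 2789, 2489, and 2002 FPKM in the WT libraries and 2489, 2190.5, and 1970.3 FPKM in the KO libraries. Its groups overlapped, and its log2 fold change was -0.12 (SE 0.27). *Rpl13a*, which is also known as a translational repressor, was measured at 1341, 1885, and 1575 FPKM and at 1976, 1836, and 1540 FPKM. *Rpl7* was measured at 1461, 1220, and 1568 FPKM and at 1656, 1424, and 1208 FPKM, and the X-linked *Rps4x* at 1247, 1053, and 997 FPKM and 1463, 1223, and 1040 FPKM. In these 3 genes the groups overlapped, the log2 fold changes were 0.16, 0.01, and 0.17, each with a SE of 0.23 to 0.25, and the highest of the 6 libraries was KO 0.

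Members with shared positions in the ribosome were also set side by side, with groups named after their values were known. Of the 2 proteins that bind the 5S ribosomal RNA and can sequester Mdm2, *Rpl11* was measured at 528, 460, and 394 FPKM in the WT libraries and 234, 269, and 260 FPKM in the KO libraries, without overlap (log2 fold change -0.85, SE 0.18). *Rpl5* was measured at 471, 557, and 844 FPKM and 758, 504, and 518 FPKM, with overlap (log2 fold change -0.05, SE 0.28). Of the 4 genes of the P stalk and its base, *Rpl12* was lower without overlap, at 812, 768, and 733 FPKM in the WT libraries and 393, 513, and 561 FPKM in the KO libraries. The groups of the other 3 overlapped. Of 7 genes listed for the exit tunnel rim 4 were lower without overlap (median log2 fold change -0.71). These 7 include *Rpl26*, described with its copy below. Of 9 genes listed as mutated in Diamond-Blackfan anaemia 4 were lower and 1 was higher (median -0.24). Among all 81 members 44.4% were lower without overlap, beside 7.84% of all tested genes, so these small lists are not read as apart from the other members. Of the 4 X-linked members, *Rpl36a* was lower without overlap and the groups of the other 3 overlapped.

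Paralogues are extra genes, most of which encode variants of a ribosomal protein. Their rows had lower mean FPKM over the 6 libraries than the rows of their parents. For *Rps27l* the parent row, *Rps27*, cannot be read as the level of that gene, as described below. *Rpl7l1* was measured at 62.7, 41.8, and 77.0 FPKM in the WT libraries and 44.4, 34.2, and 27.6 FPKM in the KO libraries (log2 fold change -0.75, SE 0.28, unadjusted p = 0.0276, adjusted p = 0.574 from limma), with overlap. *Rpl22l1* was measured at 18.2, 33.1, and 74.6 FPKM and 32.9, 24.5, and 23.5 FPKM, and its parent *Rpl22* at 68.9, 63.8, and 128 FPKM and 60.4, 40.7, and 59.6 FPKM. *Rpl22* was lower without overlap, and both had their highest value in WT 2. *Rps4l*, which has no protein-coding transcript in the annotation used here, was measured at 20.3, 28.1, and 12.0 FPKM and 12.2, 19.2, and 22.5 FPKM, with overlap. *Rps27l*, the member with the lowest mean (9.51 FPKM) and a target of p53, was measured at 21.4, 10.9, and 2.11 FPKM and 0, 5.62, and 17.1 FPKM. Of the 3 symbols below a mean of 1 FPKM, *Rpl10l* and *Rpl3l* were listed at 0 in all libraries, and *Rpl39l* was listed at 0 in all but KO 1, where it was at 1.84 FPKM.

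The values of some members cannot be read as the level of a single gene, since a near-identical copy that could take the same reads is another row of the table. Copies were counted with blastn in the transcripts of GENCODE vM21 on GRCm38 as those with at least 95% identity to the coding sequence over at least 90% of its length. The 81 genes had 556 such copies, of which 544 are annotated as pseudogenes, with a median of 5 per gene, and 11 genes had a copy that is a row of the table. *Rps4l* has no protein-coding transcript in that annotation, so it was not searched and was entered with 0 copies. Of these, 4 pairs, chosen after their values were seen, were compared base by base: *Rps27* and *Rps27rt* are identical over 255 bases, and the pairs *Rpl34* and *Rpl34-ps1*, *Rpl26* and *Gm15772*, and *Rpl30* and *Gm12191* differ at 2 of 354, 2 of 438, and 1 of 348 bases. The coding sequences, read from GRCm38, show how little there is to separate the reads: the shared *Rps27* sequence is given whole, and 120 bases of the *Rpl34* and *Rpl30* pairs, counted from the A of the start codon, with a differing base in capitals, which is 1 of the 2 in *Rpl34*.
*Rps27* and *Rps27rt*, bases 1 to 255: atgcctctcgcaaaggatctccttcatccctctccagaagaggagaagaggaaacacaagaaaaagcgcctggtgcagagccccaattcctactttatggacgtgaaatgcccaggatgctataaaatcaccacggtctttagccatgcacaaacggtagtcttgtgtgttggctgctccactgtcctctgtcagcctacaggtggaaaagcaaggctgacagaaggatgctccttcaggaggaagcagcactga
*Rpl34*, bases 13 to 132: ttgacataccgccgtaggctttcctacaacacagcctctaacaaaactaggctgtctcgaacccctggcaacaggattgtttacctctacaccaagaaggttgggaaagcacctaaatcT
*Rpl34-ps1*: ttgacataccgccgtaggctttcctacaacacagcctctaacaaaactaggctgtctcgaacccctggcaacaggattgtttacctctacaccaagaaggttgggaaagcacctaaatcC
*Rpl30*, bases 1 to 120: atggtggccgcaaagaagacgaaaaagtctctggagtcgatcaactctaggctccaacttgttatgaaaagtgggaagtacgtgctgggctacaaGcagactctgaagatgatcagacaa
*Gm12191*: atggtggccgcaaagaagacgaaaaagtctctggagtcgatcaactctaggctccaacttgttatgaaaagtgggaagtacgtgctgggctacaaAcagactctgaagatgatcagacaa

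*Rps27* (chr3:90212522-90213651, minus strand), a small subunit protein with a zinc finger, was measured at 0.112, 0.951, and 411.5 FPKM in the WT libraries and at 0.172, 494.5, and 4.78 FPKM in the KO libraries. *Rps27rt* took the opposite pattern, at 612, 740.4, and 0 FPKM and at 387, 0.0111, and 560 FPKM. *Rps27* held 0.0183%, 0.128%, and 100% of their sum in the WT libraries and 0.0444%, 99.998%, and 0.848% in the KO libraries, so that nearly all of it was at one row or the other, in both groups. The sum was 612, 741, and 412 FPKM in the WT libraries and 387, 495, and 564 FPKM in the KO libraries, with overlap and a log2 fold change of -0.26 (SE 0.27). The value of *Rps27* alone, 0.95 with a SE of 3.33, cannot be read as that of the gene.

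*Rpl34* (chr3:130726831-130730398, minus strand) was measured at 505, 535, and 1000.0 FPKM in the WT libraries and at 90.6, 357, and 305 FPKM in the KO libraries, without overlap (log2 fold change -1.59, SE 0.53, unadjusted p = 0.0176, adjusted p = 0.545 from limma). *Rpl34-ps1* was measured at 760.0, 653, and 91.6 FPKM and at 876, 725, and 586 FPKM. Summed, the pair reached 1265, 1188, and 1092 FPKM in the WT and 966, 1082, and 891 FPKM in the KO libraries, and its log2 fold change shrank to -0.27 (SE 0.20), still without overlap. The *Rpl34* row held 39.9%, 45.1%, and 91.6% of the sum in the WT libraries and 9.38%, 33.0%, and 34.2% in the KO libraries.

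*Rpl26*, at 96.8, 85.4, and 0 FPKM in the WT libraries and 0, 81.9, and 41.1 FPKM in the KO libraries, was small beside *Gm15772*, and held between 0% and 2.34% of their sum. The sum was 3643 to 4143 FPKM in the WT libraries and 3270 to 3866 FPKM in the KO libraries (log2 fold change -0.15, SE 0.28). *Rpl30*, at 16.2, 3.17, and 82.6 FPKM and at 4.78, 11.5, and 14.4 FPKM, was likewise below *Gm12191* in every library, and their sum had a log2 fold change of -0.08 (SE 0.20). By contrast *Rpl14* held 84.9% to 90.7% of its sum with *Rpl14-ps1*, and the sum remained lower without overlap (log2 fold change -0.70, SE 0.22). With all 11 genes summed with their copies that are rows of the table, 36 of the 81 were lower without overlap. Copies outside the table, such as the 55 of *Rpl21*, could not be summed. The count therefore does not test how reads shared with those copies were assigned.

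**Figure D5:**
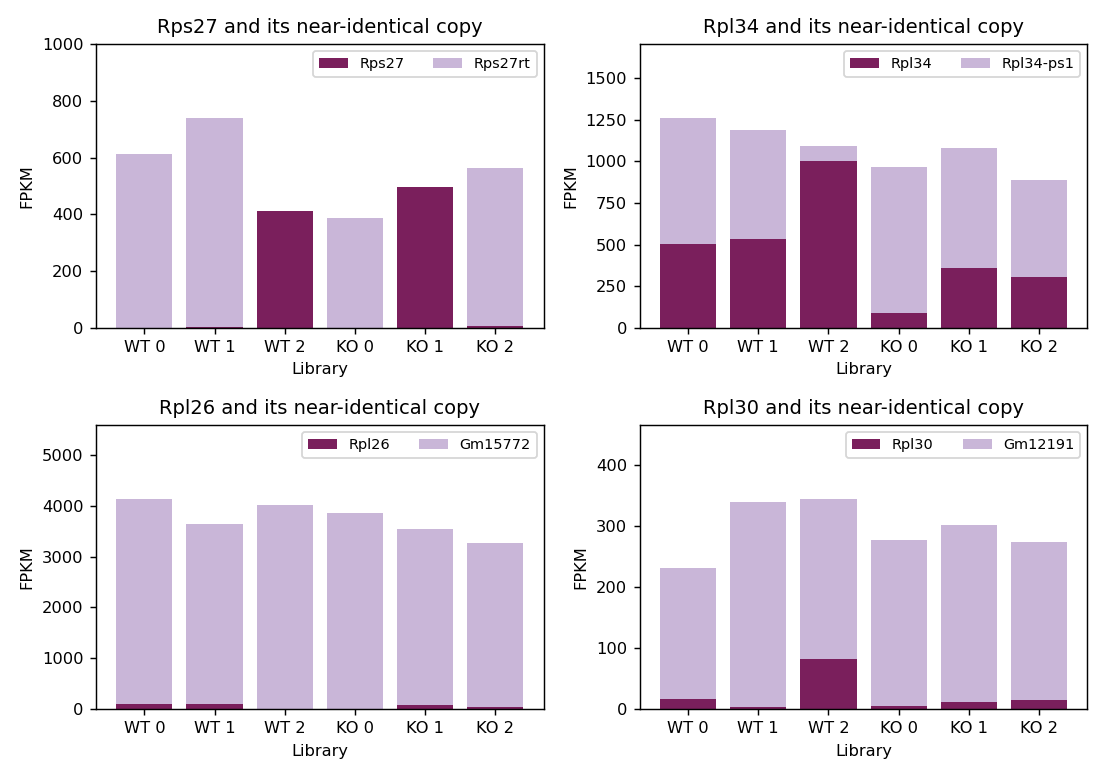
FPKM of 4 ribosomal protein genes (dark) and of a near-identical copy stacked on each (light) in each library, with bars from 0. The share of *Rps27* switches between almost 0 and almost all of the sum from library to library, *Rpl34* ranges from 9.38% to 91.6% of its sum, and *Rpl26* and *Rpl30* are a small part of theirs.

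The 36 lower genes were compared with the other 45, as a description, by length, GC content, and number of copies, which the selection of members did not use, and by mean level, for which the selection set only a minimum of 1 FPKM. Their median transcript length was 712 bases against 711.5, their median GC content 50.7% against 52.5%, their median number of near copies 6 against 4, and their median mean level 343 against 486 FPKM. Of the 41 members at or below the median level 21 were lower without overlap, and of the 40 above it 15. Over the 81 genes, which share the same libraries, Spearman's rho between the log2 fold change and the mean level was 0.40, and with transcript length, GC content, and number of copies it was 0.18, 0.22, and 0.04. Of the 30 genes that hold an annotated snoRNA 12 were lower without overlap, and of the 51 that do not 24.

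The promoters of the members were searched because many of these genes shifted together. RefSeq promoter sequences, from 250 bases before to 50 after the transcription start (GRCm38.p6), matched 60 of the 81 genes. Each motif was sought on both strands, and matches of the first and second can overlap, since the last letters of one are the first of the other. A gene was counted if any of its promoters held the motif, and the background of 27025 genes was not limited to expressed genes. The letters CCGGAAG, the core bound by ETS factors such as Gabpa, occurred in 25 of the 60 (41.7%), beside 9.9% of the 27025 genes. They were found in 11 of 29 lower genes and in 14 of 31 others. AAGATGG, a core bound by Yy1, occurred in 10 of the 60 (16.7%) beside 7.3% of all, in 3 of 29 lower genes and 7 of 31 others. The palindrome CTCGCGAG occurred in 7 of the 60 (11.7%) beside 1.0% of all, in 5 of 29 and 2 of 31. Promoters of 3 lower genes and of the higher *Rps7* are shown, from 100 bases before to 20 bases after the start, with a motif in capitals. They are shown because they hold a motif, and do not stand for the lower genes as a whole. In the same stretch *Rpl34*, *Rpl36a*, *Rps26*, and *Rpl23*, also among the lowest genes without overlap, held none of the motifs.
*Rpl37* (chr15:5116513-5116632, plus strand): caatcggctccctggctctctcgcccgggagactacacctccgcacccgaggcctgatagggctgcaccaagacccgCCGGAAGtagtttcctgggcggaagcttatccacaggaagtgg
*Rpl31* (chr1:39367751-39367870, plus strand): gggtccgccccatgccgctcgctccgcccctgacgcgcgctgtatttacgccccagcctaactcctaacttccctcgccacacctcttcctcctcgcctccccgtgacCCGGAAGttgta
*Rps28* (chr17:33824543-33824662, minus strand): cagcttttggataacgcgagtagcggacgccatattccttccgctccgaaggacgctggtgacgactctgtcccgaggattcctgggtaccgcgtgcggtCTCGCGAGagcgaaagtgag
*Rps7* (chr12:28635934-28636053, minus strand): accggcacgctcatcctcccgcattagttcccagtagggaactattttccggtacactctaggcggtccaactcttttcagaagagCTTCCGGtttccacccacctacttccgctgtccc

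Other genes of the translation machinery were taken from lists drawn up apart from the symbols above. Their counts stand beside 7.84% of all tested genes lower and 8.21% higher without overlap. Among genes with a mean of at least 50 FPKM these shares were 20.6% and 4.4%. Of 5 other cytosolic ribosomal protein genes 1 was lower without overlap: *Rpl36al*, at 264.0, 259, and 265.0 FPKM in the WT libraries and 116, 174, and 153 FPKM in the KO libraries (log2 fold change -0.85, SE 0.19, adjusted p = 0.414 from limma). *Fau*, which encodes a ribosomal protein fused to a ubiquitin-like protein, and *Gnb2l1*, which encodes the scaffold protein Rack1, had log2 fold changes of 0.14 and -0.03 with overlap. Of 43 ribosome biogenesis genes 9 were lower and 2 higher without overlap (median log2 fold change -0.13), and of 15 genes of RNA polymerase I and its factors 1 and 1 (median -0.02). Of 19 elongation factors and other TOP mRNAs 4 were lower and 1 was higher (median -0.10); *Eif3e*, a subunit of an initiation factor, was the higher one at 69.4, 117, and 65.3 FPKM in the WT libraries and 130.1, 137, and 138 FPKM in the KO libraries. Of 31 initiation factors 7 were lower and 2 higher (median -0.12), and of 77 mitochondrial ribosomal proteins 10 were lower and 2 higher (median -0.20). The shares lower were 20.9% for ribosome biogenesis, 21.1% for elongation factors and other TOP mRNAs, and 22.6% for initiation factors. For mitochondrial ribosomal proteins the share was 13.0%. Of 16 regulators of ribosomal protein genes 0 were lower or higher without overlap (median 0.02), and 0 had an unadjusted or adjusted p under 0.05 in limma. *Rn45s*, the ribosomal RNA precursor, was listed at 0 in the 3 WT libraries and at 3060.0, 3806, and 4520.4 FPKM in the KO libraries. Values listed at 0 can be failed estimates, so this difference is not read as a change in ribosomal RNA. Its cause was not tested.

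The marker lists of cell types varied in how many markers were without overlap between the groups. No marker in these lists had an adjusted p under 0.05 in limma. The part of cell types in the ribosomal protein values was not tested. Over all tested genes 7.84% were lower and 8.21% were higher without overlap. All 11 SMC markers had a lower mean log2 value in the KO libraries, 7 without overlap (median log2 fold change -1.57). Of 11 Schwann cell markers 10 had a higher mean, 4 without overlap, and their summed FPKM was 16.9 to 49.2 in the WT and 51.3 to 189 in the KO libraries. All 10 erythroid markers had a higher mean, 1 without overlap, and *Hba-a2* was listed at 0 in every library. Their sums, 4369 to 8761 FPKM in the WT and 5004 to 27565 FPKM in the KO libraries, overlapped. Of 8 neuron markers 7 had a higher mean, 3 without overlap, with sums of 19.9 to 41.4 and 43.4 to 88.6 FPKM. Of 10 endothelial markers 2 were higher without overlap (median 0.45), and of 8 fibroblast markers 1 was (median -0.14). For 13 heart muscle, 10 macrophage and leukocyte, 5 epithelial, and 5 cartilage markers, 0 were lower or higher without overlap. The medians of these lists were 0.12, 0.01, 0.65, and 0.02. With 3 libraries in each group, overlap does not show that these markers were unchanged.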

How the data were processed

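RNA was harvested from flash-frozen DA with the miRNeasy Micro Kit, and libraries were prepared with Illumina protocols. The authors trimmed the reads, aligned them to mm10 with TopHat2, and used Cufflinks and Cuffdiff to make the deposited FPKM values, 1 per gene and library. Versions, gene annotation, and scaling between libraries are not given in the sources used here. A figure legend of the study gives more replicates per group than the 3 libraries analysed here.

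Groups and replicate numbers were taken from the sample titles. The deposited FPKM values of the 12955 genes with a mean of at least 1 FPKM were put on the scale log2(FPKM + 0.1), and WT and KO were compared in R 4.3.3 with limma 3.58.1 (lmFit, then eBayes with trend; two-sided; Benjamini-Hochberg adjustment over these genes; threshold 0.05). Count tests were not used, since FPKM from Cufflinks cannot be turned back into counts. Groups without overlap are those in which every library of one lies beyond every library of the other. Near-identical copies were found with blastn 2.17.0, with a match that also covers at least 50% of the copy, and positions came from GENCODE vM21 on GRCm38, the assembly of mm10.

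Genes given with full values are the 10 lowest and up to 6 highest of those without overlap, the 5 most abundant, paralogues with their parents, genes listed at 0 in a library, the genes nearest the selection limit, and the 3 most variable; some genes that this rule selects are not reported here. Genes of the 5S RNP, P stalk base, and *Rpl14*, and the list members *Fau*, *Gnb2l1*, and *Eif3e*, were added for their roles after their values were seen. The members and lists were chosen with earlier results of these data known, and list members share libraries, so that no list was tested. Alternatives changed the pseudocount, filter, scaling, variance model, replicate block, transcript length and GC correction, and the libraries used. The fits without WT 1 and KO 2 and without WT 2 and KO 0, the summing of copies, and the background of genes with at least 50 FPKM were chosen after seeing the data.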

Additional observations from a re-analysis of the deposited data

How the results depend on the processing

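Under all 24 settings, the reported one included, 0 ribosomal protein genes had an adjusted p under 0.05 in limma, and 15 to 31 were lower with an unadjusted p under 0.05. The share of all genes lower at that p ranged from 2.72% with no filter to 6.47% with a filter of 5 FPKM. The number lower without overlap was 27 with quantile normalization (7.89% of all genes), 30 with scaling to the summed FPKM without small RNAs (5.87%), and 33 with the trends in length and GC content removed (8.29%). It was 63 without WT 2 and KO 0 (20.1%), which were picked by the spread of these same genes. The count lower at an unadjusted p under 0.05 was 17 with no filter (2.72% of all genes) and 15 without WT 1 and KO 2 (3.39%). The count higher at that p was 0 with a filter of 0.1 FPKM, with no filter, with no trend in the variance, and without WT 1 and KO 2. The number higher without overlap was 4 with quantile normalization (7.49% of all genes) and 6 without WT 1 and KO 2 (20.4%). Scaling to the summed FPKM without small RNAs moved the median of all genes from 0.07 to 0.16.

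The median log2 fold change of the ribosomal protein genes was -0.298 with quantile normalization, -0.336 with upper quartile scaling, -0.285 with scaling to the summed FPKM without small RNAs, -0.310 with length and GC trends removed, with and without the block, -0.399 without WT 2 and KO 0, and -0.333 with copies summed. Less the median of all genes, it was -0.384 with a filter of 5 FPKM, -0.492 with one of 0.1 FPKM, -0.370 with no filter, -0.306 with quantile normalization, -0.355 with length and GC trends removed, with and without the block, and -0.404 with copies summed. The summed FPKM in the KO libraries was 87.0% of that in the WT libraries after scaling to the sum without small RNAs. Over all genes, 2 had an adjusted p under 0.05 in limma with no trend, with no moderation, without WT 1 and KO 2, and without WT 2 and KO 0, and 0 with length and GC trends removed, with and without the block.

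The log2 fold change changed sign for some genes. *Rpl13a* was at -0.178 and *Rpl7* at -0.314 with quantile normalization, *Rpl7* at -0.0195 with scaling to the median of other genes, *Rpl7* at -0.0266 and *Rps4x* at -0.0228 without WT 2 and KO 0, *Rplp1* at 0.0233 and *Rps4l* at 0.0249 with length and GC trends removed, with and without the block, and *Rps27* at -0.263 with copies summed. Without 1 library at a time, 19 to 27 were lower (3.84% to 4.75% of all genes) and 0 to 1 higher at an unadjusted p under 0.05. Without overlap 36 to 48 were lower and 2 to 4 higher, beside 11.3% to 13.6% of all genes lower and 12.7% to 15.3% higher. The median was -0.404 to -0.319 and, less that of all genes, -0.480 to -0.388, and 1 to 2 genes of all passed. In these fits *Rpl26* ranged from -3.71 to 2.63, *Rps27* from -1.97 to 4.20, *Rps27l* from -3.41 to 0.298, *Rpl22l1* from -0.896 to 0.117, *Rps4l* from -0.453 to 0.155, and *Rpl7* from -0.104 to 0.124. For values that changed, the cause was not tested.

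With the replicate numbers as a block, 29 ribosomal protein genes were lower and 1 was higher at an unadjusted p under 0.05, beside 5.23% of all genes lower. Of the ribosomal protein genes 0 passed the adjusted threshold, and 1 of all genes did, *Rn45s*. Libraries of the same number correlated at 0.122, -0.076, and -0.009 in their deviations from the group means, so that the numbers were not taken as pairs, and the highest of the 9 correlations, 0.144, was between WT 1 and KO 2. The depth of the libraries is unknown, and values of genes listed at 0 can be failed estimates.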
